A study of Mus musculus with 9 samples.

Results

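MicroRNA precursor genes were examined in ribosome-associated RNA of neurons from the medial prefrontal cortex (mPFC) of adult C57BL/6 mice. A gene was included when its symbol followed the naming pattern of mouse microRNA genes (Mir or Mirlet, a number, and at most a letter and a copy number) and its mean over the 9 libraries was at least 1 FPKM, that is fragments per kilobase of transcript relative to all mapped fragments. The members were thus selected on measured values, by their level over all libraries and not by a difference between groups. By this rule 13 genes were members, of 1180 microRNA precursor symbols and 47593 gene symbols in all. The study asked how overexpressed Fxr1, which binds RNA and is related to the fragile X protein, acts on sleep and synaptic homeostasis. Group S held 3 libraries from GFP control mice in sleep, group EW 3 libraries from GFP control mice kept awake (enforced wake), and group EWFxr1 3 libraries from mice kept awake that overexpressed GFP-Fxr1 in the mPFC. RNA was taken by RiboTag, an immunoprecipitation of tagged ribosomes from chosen cells, in every group, and which driver tags the cells is not stated in the labels. The labels do not say that the libraries came from separate animals, so p-values measure only how far these samples spread, which may be technical variation.

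MicroRNAs are made from a folded hairpin inside a longer primary transcript. In the nucleus Drosha and Dgcr8 cut out the hairpin, exportin-5 (Xpo5) carries it to the cytoplasm, and Dicer1 trims it to a short duplex, of which 1 strand is loaded into an Argonaute protein. Bases 2 to 8 of that strand, the seed, pair with target messages, and in neurons microRNAs tune the translation of synaptic messages. The libraries here were made from total RNA with a stranded kit for long RNA, which does not capture mature microRNAs as such. A value of a precursor gene is therefore read coverage assigned to the annotated hairpin, and where another gene has an exon on the same strand at that place, reads of the 2 genes cannot be told apart.

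The estimated depth was 29900000 to 37300000 fragments per library. Fxr1 itself was at 31.7, 34.8 and 31.0 FPKM in S, at 34.9, 33.9 and 31.1 FPKM in EW, and at 91.1, 67.7 and 71.8 FPKM in EWFxr1, so the overexpression was seen in every library so labelled. The 7 neuronal markers summed to 3795 to 3967 FPKM in S, 3420 to 3559 in EW and 3688 to 3798 in EWFxr1. Markers of other cells were present as well: the 5 astrocyte markers summed to 103 to 119, 123 to 148 and 78.3 to 87.9 FPKM in the same order, and none of the markers of astrocytes, oligodendrocytes, microglia, endothelium or blood was at 0. Library EWFxr1 replicate 1 stood apart in its dependence on GC content: the median log2 deviation of protein-coding genes in the highest quintile of GC content minus that in the lowest quintile was -1.11 there, -0.20 and -0.12 in the other EWFxr1 libraries, -0.24 to 0.15 in S and 0.41 to 0.59 in EW. The GC trend thus moved with the groups, and its part in the results was not tested beyond the values given beside them.

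Sequences of the members that the results turn on were read from the RefSeq tables of build GRCm38.p6, which held a mature sequence for 10 of the 13 members. The first set is the mature microRNAs of 3 hairpins that passed a test in a comparison and of Mir8091, which lay outside any other gene, printed 5′ to 3′ with the seed in capitals. These 4 seeds all differ, and the 13 mature sequences that the table held for the members had 13 different seeds.
miR-8114, chr1:153899989-153900009, plus strand: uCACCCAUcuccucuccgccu
miR-6236, chr9:110281353-110281371, plus strand: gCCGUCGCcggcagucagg
miR-8104, chr10:122679336-122679357, plus strand: cAGGAUGAgguggagugcagcg
miR-8091, chr19:41588691-41588712, plus strand: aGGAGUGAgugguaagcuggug

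The second set is shown because these sequences also lie in another, often more abundant RNA. Of the first set, miR-8114 also lies in Glul and miR-8104 in Ppm1h. The mature miR-22-3p and miR-703 have the seed in capitals, and the 2 hairpins have the mature strands in capitals.
miR-22-3p, chr11:75463772-75463793, plus strand: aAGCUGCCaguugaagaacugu
miR-703, chr5:98475616-98475636, minus strand: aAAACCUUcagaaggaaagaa
Mir3069 hairpin, chr12:105031077-105031141, minus strand: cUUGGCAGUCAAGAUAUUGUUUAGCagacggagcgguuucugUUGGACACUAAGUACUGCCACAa
Mir1843b hairpin, chr1:159340358-159340423, plus strand: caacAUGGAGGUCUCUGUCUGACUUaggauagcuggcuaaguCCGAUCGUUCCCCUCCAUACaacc

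Few microRNA precursor genes carried signal in these libraries. Of the 1180 symbols, 486 were listed at 0 in all 9 libraries and 694 were above 0 in at least 1, 193 had a mean of at least 0.1 FPKM, and 6 had a mean of at least 10 FPKM. The median of the means was 0.00684 FPKM, against 0.331 to 0.413 FPKM for 1 whole fragment in a gene of the median length of 81 bases. The 13 members held 67.1% of the summed mean FPKM of all precursor symbols, and the 6 highest of them held 85.3% of the members' own sum. The lowest members just inside the threshold were Mir1949 at 1.33 FPKM and Mir1291 at 1.01 FPKM, and the highest genes just outside it were Mir384 at 0.989 FPKM and Mir128-1 at 0.924 FPKM.

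**Figure D1:**
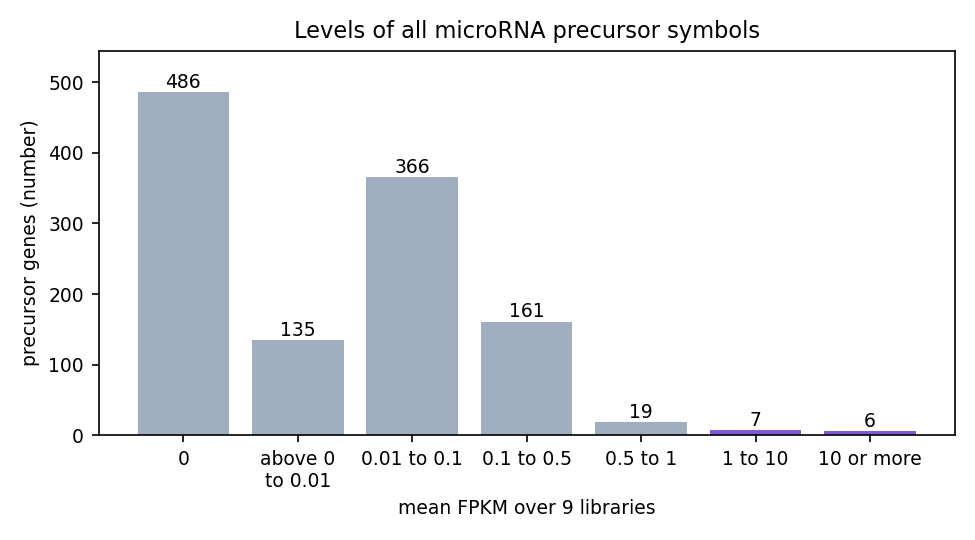
Number of microRNA precursor genes (y axis) by mean FPKM over the 9 libraries (x axis, bins of unequal width); the 2 purple bars are the 13 members. The tallest bar is the 486 genes listed at 0 in all libraries, and 7 and 6 genes make up the 2 highest classes.

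The families that neurons are best known for were below the threshold. None of the 25 symbols of neuronal families (among them Mir124, Mir9, Mir128, Mir132 and Mir138) was a member: 18 were above 0 in some library, their median of means was 0.0268 FPKM, and Mir128-1 was the highest. None of the 50 symbols of the imprinted cluster on chromosome 12, a large brain-expressed array of microRNAs, was a member, though 48 were above 0; Mir382 was highest at 0.709 FPKM. All 12 symbols of the let-7 family, abundant microRNAs of mature neurons, were above 0, the highest being Mirlet7b at 0.238 FPKM. Of 14 symbols of glial families 8 were above 0, with Mir27b highest at 0.847 FPKM, and of 23 of blood, immune, vascular and muscle families 3 were above 0, with Mir1b highest at 0.0281 FPKM. The Mir17 to Mir92 clusters had 2 of 16 symbols above 0, with Mir20a highest at 0.0574 FPKM, and the repeat-rich families of the Sfmbt2 locus 52 of 81, with Mir669d-2 highest at 0.0783 FPKM.

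Most members overlapped another gene. In the GENCODE annotation 8 of the 13 hairpins lay on an exon of another gene on the same strand, 2 overlapped other genes only on the opposite strand, and 3 overlapped no gene. Of the first kind, Mir8114 (chr1:153899926-153900036) shared 93 of its 111 bases with the untranslated part of an exon of Glul, which encodes glutamine synthetase, an enzyme chiefly of astrocytes, and began 18 bases before that gene. Mir8104 (chr10:122679315-122679415) lay wholly in coding sequence of Ppm1h, a protein phosphatase, and Mir5046 (chr19:6829886-6829944) in an exon of the kinase gene Rps6ka4, with 3 bases coding and 56 untranslated. Mir22 (chr11:75463716-75463810) lay in an exon of its non-coding host Mir22hg. Mir1949 had an exon of AC121821.1 over it, a gene that was either absent from the data or at 0.

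The other 3 of these 8 lay in genes typed as scaRNA or snoRNA, small RNAs that guide the modification of other RNAs. Mir3069 had all 65 bases in Scarna13, Mir1843b 65 of 66 bases in Scarna3a within an intron of Rfwd2 (Cop1), and Mir1291 (chr15:98519762-98519878) 92 of 117 bases in Snora34 within an intron of Kansl2. Mir703 (chr5:98475556-98475664) and Mir684-1 (chr2:80628705-80628790) lay on the opposite strand of introns, of Cfap299 and of Dusp19 and Nup35. Mir6236 (chr9:110281287-110281409), Mir684-2 (chr4:11134097-11134182) and Mir8091 (chr19:41588651-41588789) had no gene over them.

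Sequence likeness added to the overlap for Mir703. An alignment of its hairpin to the annotated transcripts found 107 of 109 bases identical in Eef1a1, the abundant translation elongation factor, which was at 788 FPKM on average, and the same number in Gm26377 and Gm26384. Reads of Mir703 and of these copies may have been split by the authors' counting, so its values are uncertain. The same caution applies to the pair Mir684-1 and Mir684-2, which are named as copies of 1 microRNA. Their FPKM ratio lay between 3.08 and 4.24 in all 9 libraries, and their sequences were not compared. For Mir8091 no other gene matched 80% or more of the hairpin. Mir6236, Mir684-1, Mir684-2 and Mir1949 were not aligned.

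**Figure D2:**
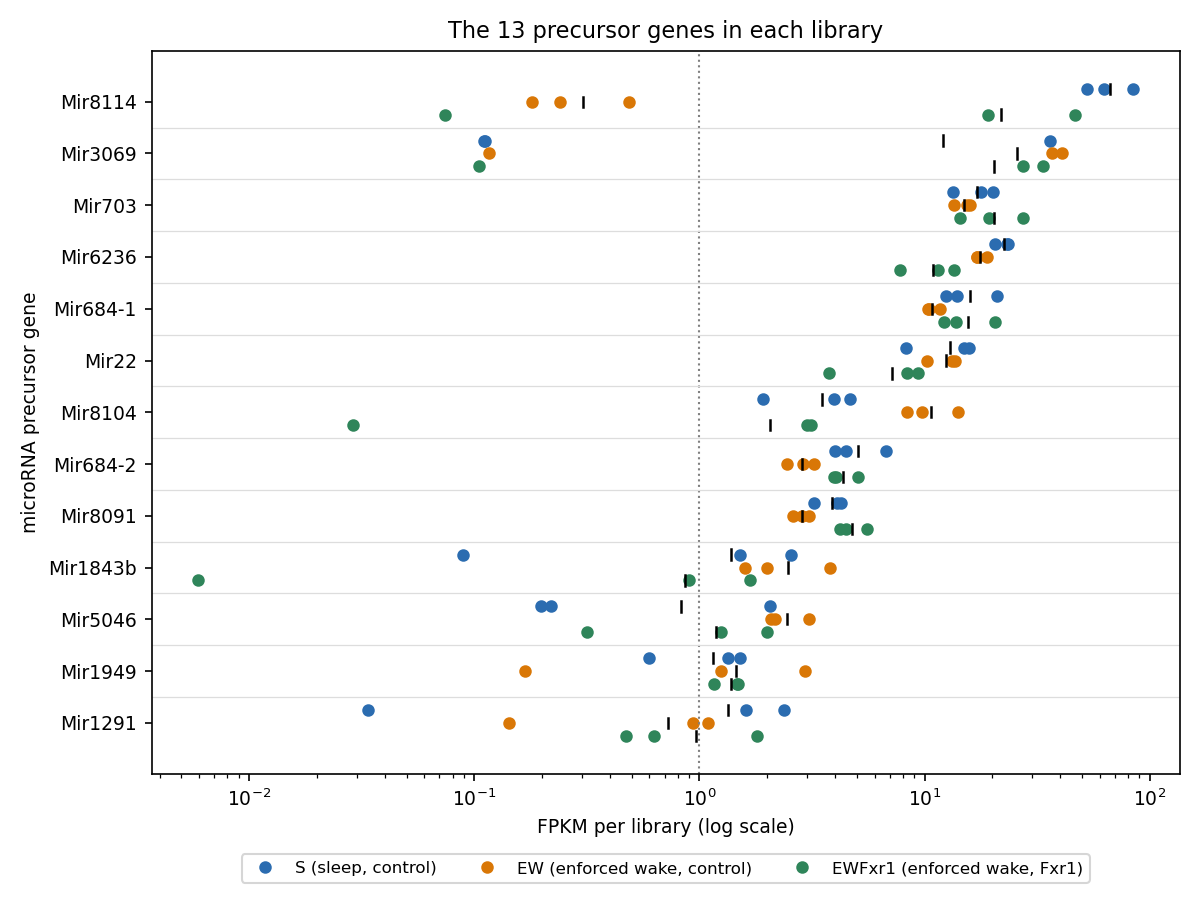
FPKM of each member (rows, highest mean at the top) in each of the 9 libraries (x axis, log scale); points are libraries coloured by group, short black bars are arithmetic group means and the dotted line is 1 FPKM. Mir8114 splits into S libraries at 52.4 to 84.4 and EW libraries at 0.181 to 0.487, and Mir3069 splits into 2 levels within every group.

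Between sleep and enforced wake, Mir8114 showed the largest difference of the members. It was at 84.4, 52.4 and 62.4 FPKM in S, at 0.487, 0.181 and 0.240 FPKM in EW, and at 19.1, 46.6 and 0.0739 FPKM in EWFxr1. In fragments, this is a signal of 176 to 311 whole fragments in S and of 0.616 to 1.62 in EW. The 3 S libraries were far above the 3 EW libraries with no overlap, while of the EWFxr1 libraries 2 lay between these groups and 1 below both. With limma on log2(FPKM + 1), adjusted over 14673 genes by Benjamini-Hochberg, Mir8114 was lower in EW by a log2 fold change of -5.67 (SE 0.18, adjusted p = 5.09e-05), and it passed under all 16 alternative settings, leave-one-out fits included. Mir8114 reached the mean of 0.5 FPKM needed for testing only through the S libraries, its EW mean being 0.303 FPKM. The test is therefore no support beyond the values themselves.

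The gene that shares its exon moved the other way. Glul, read over the same 93 bases and beyond, was at 179, 161 and 164 FPKM in S and at 210, 229 and 259 FPKM in EW, and rose by 0.47 (log2, SE 0.09, limma adjusted p = 0.0135). The Glul transcript whose exon covers the hairpin carried nearly all of this, at 177, 158 and 162 FPKM in S against 208, 226 and 257 in EW. How the authors' program divided reads of the shared bases between the 2 genes was not tested. The astrocyte markers, summed, were also higher in each EW library than in each S library, and their part in the Glul difference was not tested. In RNA pooled over cells by RiboTag, the number of cells of a type, RNA per cell and recovery in the immunoprecipitation cannot be told apart.

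Mir8104 was higher in enforced wake. It was at 3.98, 1.92 and 4.66 FPKM in S, at 8.34, 9.77 and 14.0 FPKM in EW and at 0.0289, 3.0 and 3.14 FPKM in EWFxr1. Each EW library was above each S and each EWFxr1 library. The log2 fold change of EW over S was 1.40 (SE 0.28, limma adjusted p = 0.0153). It missed the threshold without EW replicate 3 and when all 9 libraries were fitted together (adjusted p = 0.122). This hairpin has the highest GC content of the members, 68.3%, and the EW libraries had the strongest excess of GC-rich genes. With the GC trend removed from each library, a setting chosen after seeing the data, the log2 fold change was 0.78 in place of 1.40 (limma adjusted p = 0.0322). Its host Ppm1h gave a different picture: the transcript that holds the hairpin was at 23.9, 23.2 and 24.6 FPKM in S, and at 31.7, 8.68 and 32.8 FPKM in EW, with the groups overlapping.

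Mir6236, which no other gene overlaps, was lower in wake than in sleep, and its lowest values were in the EWFxr1 libraries. It was at 23.2, 20.6 and 23.5 FPKM in S, at 17.0, 19.0 and 17.1 FPKM in EW and at 7.78, 13.5 and 11.4 FPKM in EWFxr1. The 3 groups did not overlap. The log2 fold change of EW over S was -0.33 (SE 0.08, limma adjusted p = 0.0232), which passed in 10 of 16 alternative settings. It missed without S replicate 1, S replicate 3, EW replicate 1 or EW replicate 3. It also missed with a replicate block (limma adjusted p = 0.0612) and when all 9 libraries were fitted together (adjusted p = 0.234).

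Smaller differences were measured for Mir684-1, Mir684-2 and Mir8091. Mir684-2 was at 3.98, 6.72 and 4.50 FPKM in S and at 2.87, 3.24 and 2.46 FPKM in EW. This is a log2 fold change of -0.63 (SE 0.17, limma adjusted p = 0.0364) that passed in 9 of 16 alternative settings. It missed without S replicate 3 or any 1 of the EW libraries. It also missed without the filter (limma adjusted p = 0.0866), with all 9 libraries fitted (0.0530) and with the GC trend removed (0.0642). Mir684-1 was at 12.5, 21.1 and 14.0 FPKM in S against 10.4, 11.7 and 10.4 in EW, and Mir8091 at 4.10, 4.27 and 3.23 FPKM in S against 2.61, 2.87 and 3.06 in EW. In both genes every S library was above every EW library, but the limma adjusted p was 0.0886 for Mir684-1 and 0.0530 for Mir8091. Their log2 fold changes were -0.48 and -0.34. With the GC trend removed they were -0.28 for Mir684-1 (limma adjusted p = 0.207) and -0.22 for Mir8091 (0.165). Mir5046 lay the other way, at 0.198, 2.07 and 0.219 FPKM in S and 2.08, 3.08 and 2.17 in EW, with a limma adjusted p of 0.0717. Its groups barely missed overlapping: S replicate 2 held 3.69 whole fragments and EW replicate 1 held 3.67. With the GC trend removed, the log2 fold change of Mir5046 was 0.58 in place of 1.05 (limma adjusted p = 0.381).

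Across the set, limma called 1 of the 13 members higher in EW than in S, against 15.7% of all 14673 genes tested, and 3 lower, against 12.7%. With every library rescaled to the same sum of FPKM it called 1 higher and 4 lower, against 11.0% and 20.6% of all genes. Mir8091 was the addition, while 34.8% instead of 55.3% of all calls were higher. Without overlap of the groups, 2 members were higher, against 25.8% of all genes, and 5 lower, against 23.8%. The median log2 fold change of the members was -0.17, that of all genes 0.00427. All 13 members passed the filter on low values in each comparison. Mir8114 had an EW mean of 0.303 FPKM. It passed the filter through the S libraries in EW against S, and through the EWFxr1 libraries in EWFxr1 against EW.

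Mir22, the best known microRNA of the set and widely expressed in brain and heart, did not pass. It was at 15.7, 8.27 and 14.9 FPKM in S, at 13.7, 10.3 and 13.2 FPKM in EW and at 3.78, 8.38 and 9.36 FPKM in EWFxr1, with S and EW overlapping (log2 fold change -0.02, SE 0.24, limma adjusted p = 0.953). Its host transcript Mir22hg had tighter values, 17.1, 17.9 and 17.0 FPKM in S, 12.5, 12.8 and 12.3 in EW and 13.4, 13.1 and 12.7 in EWFxr1. Mir22hg was lower in EW by -0.44 (log2, SE 0.05, limma adjusted p = 0.00443) and in EWFxr1 against S by -0.38 (SE 0.06, adjusted p = 0.0146), where it missed the threshold without any 1 of the S libraries. Values over the hairpin thus differed in order from those of the long transcript around it.

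**Figure D3:**
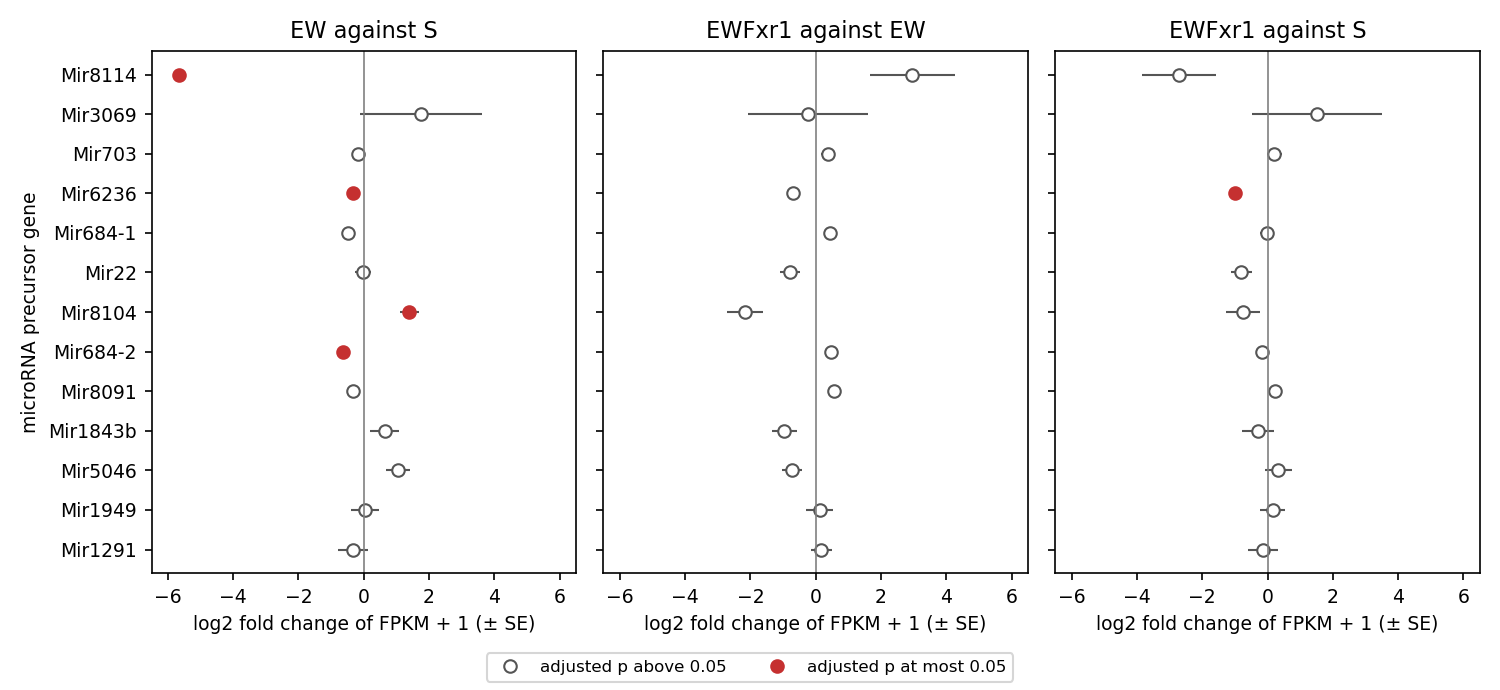
Log2 fold change of FPKM + 1 (x axis) of each member in the 3 comparisons, as limma estimate with its standard error; filled red points have an adjusted p of at most 0.05. In EW against S 4 points are filled, led by Mir8114 at -5.67, in EWFxr1 against EW none and in EWFxr1 against S only Mir6236 at -1.01.

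The comparison of EWFxr1 with EW asks what Fxr1 changed under enforced wake. No member passed in limma (0 of 13), against 0.0824% of all 14563 genes called higher and 0.33% called lower, and 7 members had an unadjusted p under 0.05, as did 38.3% of all genes. Without overlap of the groups 3 members were higher in EWFxr1, Mir684-1, Mir684-2 and Mir8091, against 20.3% of all genes. The other 4 without overlap were lower, Mir6236, Mir22, Mir8104 and Mir5046, against 32.3%. The 3 higher hairpins had a GC content of 36.0 to 44.6%, and the 4 lower ones of 55.8 to 68.3%. With the GC trend removed, the log2 fold change was 0.10 in place of 0.45 for Mir684-1 and 0.086 in place of 0.48 for Mir684-2. It was -0.26 in place of -0.78 for Mir22 and 0.19 in place of -0.72 for Mir5046. The part of GC content in these differences was not tested. The EW libraries serve in both this comparison and that with S, so opposite signs in the 2 are not independent.

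Mir8091, with no gene over it and no near copy, was at 4.50, 5.55 and 4.20 FPKM in EWFxr1 against 2.61, 2.87 and 3.06 in EW, each EWFxr1 library above each EW library (log2 fold change 0.57, SE 0.12, limma adjusted p = 0.0879). Mir8104 had a log2 fold change of -2.16 (SE 0.55, adjusted p = 0.0879) and Mir6236 of -0.68 (SE 0.19, adjusted p = 0.0880). Without EWFxr1 replicate 1, the library with the steep GC trend, these 3 genes passed, Mir8091 as higher and the other two as lower; in that fit 5.69% of all genes were called higher and 17.1% lower. With all 6 libraries and the GC trend removed, the log2 fold change was -0.14 for Mir6236 (limma adjusted p = 0.433), -1.06 for Mir8104 (0.175) and 0.41 for Mir8091 (0.175). Without EWFxr1 replicate 3, the library with Mir8114 at 0.0739 FPKM, Mir8114 passed as higher, in a fit that called 0.048% of all genes higher. Leaving that library out takes away the low value, and Mir8114 passed the filter only through the EWFxr1 libraries. The pass is therefore no support for a difference. With all 3 libraries, Mir8114 had a log2 fold change of 2.96 (SE 1.3, adjusted p = 0.143) and the groups overlapped.

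EWFxr1 against S differs in both wake and Fxr1, and here 1 member passed. Mir6236 was lower by a log2 fold change of -1.01 (SE 0.17, limma adjusted p = 0.0142, over 14617 genes), against 4.58% of all genes called lower. It missed the threshold without S replicate 1, without S replicate 3, and when only the 6 libraries of the 2 groups were fitted (adjusted p = 0.0729). No member was called higher, against 3.2% of genes, and 3 members had an unadjusted p under 0.05, as did 29.2% of all genes. Without overlap of the groups 2 members were lower, Mir6236 and Mir8114, against 21.2%, and none higher, against 11.5%. Mir8114 had a log2 fold change of -2.71 (SE 1.15, adjusted p = 0.161).

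Mir3069 had 2 levels within each group. It was at 0.111, 36.0 and 0.110 FPKM in S, at 36.8, 0.116 and 40.6 in EW and at 0.105, 27.4 and 33.5 in EWFxr1. Each group held libraries under 0.5 FPKM and libraries at 27.4 FPKM or more. Scarna13, which contains the whole hairpin and guides modification of spliceosomal RNA, was listed at 0 in the 5 libraries where Mir3069 was high, and at 25.6 to 61.7 FPKM in the 4 where it was low. No library had both above 0.5 FPKM, and the sum of the 2 genes lay between 25.8 and 61.8 FPKM, a 2.40-fold range against 387-fold for Mir3069 alone. The high libraries of Mir3069 were thus the ones with Scarna13 at 0, in all 3 groups.

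The other 2 members inside scaRNA or snoRNA genes showed the same trade in part. Scarna3a was listed at 0 in 5 libraries, in all of which Mir1843b was above 0.5 FPKM, and the sum of both ranged 4.48-fold against 643-fold for Mir1843b alone. The sum of Mir1291 and Snora34 ranged 3.44-fold, against 70.2-fold for Mir1291, and both were above 0.5 FPKM in 2 libraries. In none of the 3 comparisons did limma call Mir3069, Mir1843b or Mir1291.

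**Figure D4:**
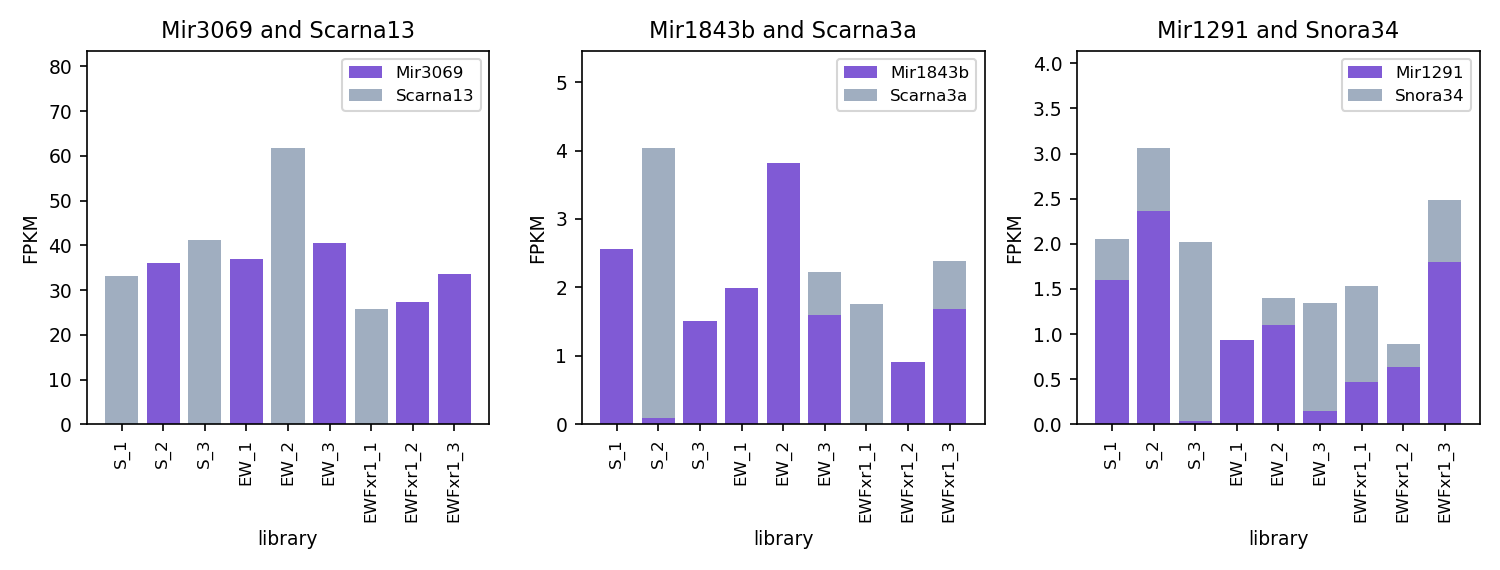
FPKM (y axis, stacked from 0) of 3 members and of the scaRNA or snoRNA gene over each hairpin, in every library (x axis: S, EW and EWFxr1 with replicate number). For Mir3069 and Scarna13 each bar is of 1 colour, and the total lies between 25.8 and 61.8 FPKM.

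The other members had values near the threshold or in overlapping groups. Mir703 was at 13.4 to 20.2 FPKM in S, 13.6 to 15.9 in EW and 14.3 to 27.4 in EWFxr1, and Mir1949 at 0.597 to 1.52, 0.167 to 2.94 and 1.17 to 1.48 FPKM. Mir1949 is listed under 2 gene identifiers, of which that typed as snoRNA carried nearly all of the signal. Neither was called in a comparison.

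Together the members held little of each library. Their share of the summed FPKM was 0.0493, 0.0537 and 0.0445% in S, 0.0322, 0.0233 and 0.0336% in EW and 0.0293, 0.0446 and 0.0303% in EWFxr1. The S libraries were all above the EW libraries, and EWFxr1 overlapped both. The means were 0.0492% ± 0.00460 (SD, n = 3) in S, 0.0297% ± 0.00560 in EW and 0.0347% ± 0.00857 in EWFxr1. A two-sided exact permutation test gave p = 0.1 for EW against S, 0.6 for EWFxr1 against EW and 0.2 for EWFxr1 against S, and 0.1 is the smallest p that 3 against 3 libraries allow. Without Mir8114 the difference of EW from S was 0.00031 percentage points (exact permutation p = 1). Without all 8 members on a same-strand exon, Mir8114 among them, the S libraries were again above the EW libraries, at 0.0170 to 0.0221% against 0.0132 to 0.0146% (exact permutation p = 0.1). The share of protein-coding genes in the FPKM moved as well, from 90.3 to 92.0% in S to 85.3 to 86.3% in EW and 89.6 to 93.4% in EWFxr1, and its part in these shares was not tested.

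**Figure D5:**
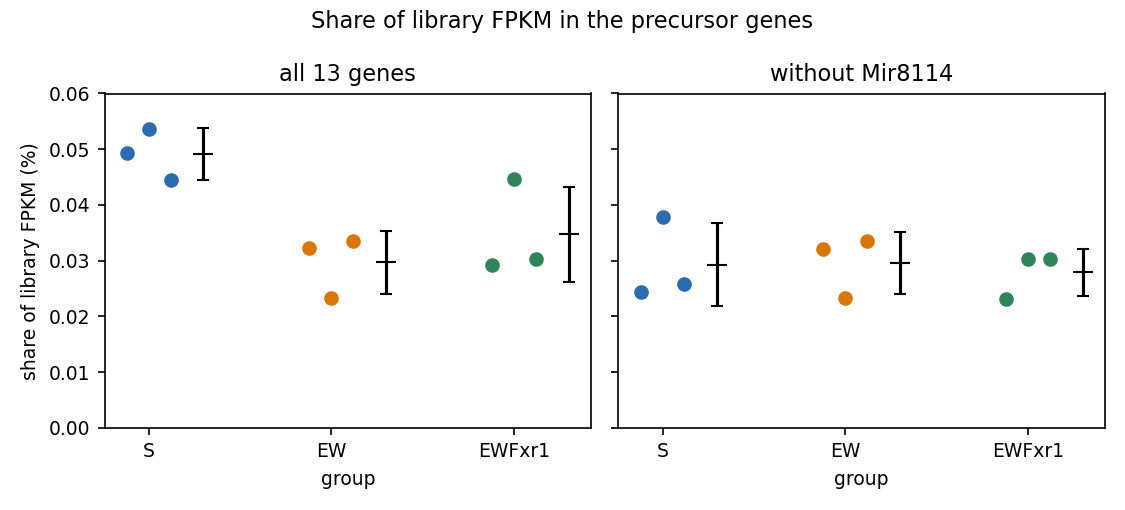
Share of each library's summed FPKM (y axis, %) held by all 13 members (left) and without Mir8114 (right), by group; points are libraries and bars the mean ± SD of 3 libraries. With all members the S libraries lie at 0.0445 to 0.0537%, above the EW libraries at 0.0233 to 0.0336%; without Mir8114 the groups overlap.

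Among genes below the threshold, Mir132, a microRNA known to be induced through CREB by neuronal activity, was at 0, 0 and 0.192 FPKM in S, 2.26, 0.748 and 0.811 in EW and 0, 0.298 and 0 in EWFxr1. All EW libraries were above all others. Mir409, of the imprinted cluster, was at 0.537, 0.0251 and 0.391 FPKM in S, 1.10, 1.63 and 1.11 in EW and 0.573, 0.235 and 0.685 in EWFxr1, again with the EW libraries above the rest. In a gene of the median length of 81 bases, 1 whole fragment is 0.331 to 0.413 FPKM, so the values of both genes rest on few fragments. Both genes passed the filter on low values only through the EW libraries, so no test is given for them. The highest genes of the neuronal, imprinted and glial lists, Mir128-1, Mir382 and Mir27b, were not called in EW against S (limma adjusted p = 0.463, 0.340 and 0.776). Mirg, a long transcript of the imprinted cluster, rose by 0.53 in EW against S (log2, SE 0.14, limma adjusted p = 0.0366). Mirg missed the threshold without replicate 1 or 3 of either group. It also missed without the filter, with a replicate block, with all 9 libraries fitted and with the GC trend removed. The 2 host transcripts of Mir124 went in opposite directions, Mir124-2hg by -0.68 (SE 0.12, adjusted p = 0.0103) and Mir124a-1hg by 0.48 (SE 0.09, adjusted p = 0.0131). With all 9 libraries fitted, Mir124a-1hg missed the threshold. The host transcripts were chosen by name after their values were seen.

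Several genes for proteins that make and use microRNAs differed between sleep and wake. Of 26 genes of the list that were tested, 9 rose and 2 fell in EW against S, against 15.7% and 12.7% of all genes, and the median log2 fold change was 0.0559 against 0.00427 for all genes. The balance depended on scaling: with every library rescaled to the same sum of FPKM 5 were higher and 8 lower, against 11.0% and 20.6% of all genes. Leaving out 1 library gave 4 to 8 higher and 1 to 3 lower, against 7.20 to 14.3% and 5.05 to 10.4% of all genes. Fitting all 9 libraries gave 3 higher and 2 lower, against 4.58% and 4.99%. With the GC trend removed 5 were higher and 2 lower, against 10.4% and 11.7%. Ago2, Ago3, Ddx17 and Prkra were called in each of these fits, and Tarbp2 in all but the fit of 9 libraries. Ago2, the Argonaute that can cut targets, was at 10.2 ± 0.583 FPKM (SD, n = 3) in S and 15.0 ± 0.595 in EW, a rise of 0.52 (SE 0.07, limma adjusted p = 0.00455). The RNA helicase Ddx17, a partner of Drosha, rose by 0.60 (adjusted p = 0.00407), Ago3 by 0.45 (0.00554) and the Dicer partner Tarbp2 by 0.43 (0.00984), while Prkra, another Dicer partner, fell by 0.54 (adjusted p = 0.00981). Drosha, Dgcr8 and Dicer1 did not pass, with log2 fold changes of 0.05, 0.03 and -0.08. In EWFxr1 against EW 0 of 26 passed in limma, and 8 had an unadjusted p under 0.05, as did 38.3% of all genes. Without EWFxr1 replicate 1, 2 were called higher and 3 lower, against the 5.69% and 17.1% of all genes in that fit. In EWFxr1 against S, Ago3 rose by 0.77 (adjusted p = 0.00552) and Ddx17 by 0.53 (0.00755), and Prkra fell by 0.51 (0.0334), a call that was missed in 8 of the 9 fits that left out 1 library.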

How the data were processed

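RNA of 9 libraries was analysed, 3 in each of the groups S, EW and EWFxr1. The authors deposited FPKM per transcript and library in 2 tables, per the file headers; the EW columns are identical in both, so the libraries were joined. The submitters' processing notes name StringTie 1.3.4d, HISAT2 2.1.0 and SAMtools 1.9, and the build GRCm38. The deposited fold, p-value and q-value columns were not used. FPKM were summed per symbol. FPKM are relative to each library's total and keep no counts, so depth was estimated from the steps of FPKM times length. log2(FPKM + 1) was tested with limma 3.58.1 in R 4.3.3 (eBayes with trend, 2-sided, Benjamini-Hochberg, threshold 0.05) over all genes with a mean of at least 0.5 FPKM; EW against S and EWFxr1 against EW used their own 6 libraries, EWFxr1 against S all 9. The script was tested on simulated data. Of the members' hairpins 9 were aligned to GENCODE M21 transcripts with blastn 2.17.0 (same strand). Named were the 10 highest members, those passing without overlap of the groups, up to 3 of the highest of each family list, those beside the threshold, host genes, and of the biogenesis list Drosha, Dgcr8, Dicer1, Ago2 and the smallest p; the remaining members, genes with copies of a hairpin and transcripts named as microRNA hosts were added after their values were seen. Members and lists were chosen with earlier results of these data known. Alternatives changed the pseudocount, filter, scaling, trend, libraries fitted, replicate block and GC trend, or left out 1 library.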

Additional observations from a re-analysis of the deposited data

How the results depend on the processing

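Which members passed depended on the libraries fitted. The other choice of libraries was all 9 for the comparisons with EW and 6 for EWFxr1 against S. With it, EW against S had 0 members higher and 1 lower (Mir8114), against 4.58% and 4.99% of all genes. EWFxr1 against EW had 1 higher (Mir8091) and 2 lower (Mir6236, Mir8104), against 6.71% and 16.3%. EWFxr1 against S had 0 lower, against 0.522%. Leaving out 1 library at a time gave 0 to 2 higher and 1 to 3 lower in EW against S, against 7.20 to 14.3% and 5.05 to 10.4% of all genes. In EWFxr1 against EW it gave 0 to 1 higher and 0 to 2 lower, against 0.0069 to 5.69% and 0.0069 to 17.1%. In EWFxr1 against S it gave 0 to 1 lower, against 0.76 to 5.72%. The main fits treated the libraries as unpaired. Correlations of same-numbered libraries ran from -0.253 to 0.167, and those of other-numbered libraries from -0.378 to 0.427. Such correlations cannot show whether same-numbered libraries were paired. With a replicate block, EW against S had 2 members higher (Mir8104, Mir5046) and 2 lower (Mir8114, Mir684-2), with 1780 and 1336 of all genes (12.1% and 9.1%). Mir6236 had a limma adjusted p of 0.0612 there. EWFxr1 against EW had 0 and 0, against 0% and 0.0069% of all genes, and EWFxr1 against S 0 and 1, against 1.27% and 1.28%. Rescaling each library to an equal sum of FPKM moved the higher share of all calls from 55.3 to 34.8% in EW against S, from 20 to 46.4% in EWFxr1 against EW and from 41.1 to 53.4% in EWFxr1 against S, and the median log2 fold change of all genes in EWFxr1 against EW from -0.06 to 0.07.

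Without Mir8114 the share of library FPKM turned to 0.00031 percentage points in EW against S and -0.0017 in EWFxr1 against EW. With all 13 members, leaving out 1 library moved the difference from -0.0218 to -0.0163 (EW against S), 8.08e-05 to 0.00775 (EWFxr1 against EW) and -0.0194 to -0.0117 (EWFxr1 against S). With the GC trend removed, the log2 fold change of Mir703 turned to 0.0175 (EW against S), -0.0659 (EWFxr1 against EW) and -0.0483 (EWFxr1 against S), that of Mir5046 to 0.19 (EWFxr1 against EW) and that of Mir1949 to -0.0147 (EW against S). In EW against S Mir1949 was -0.19 with a pseudocount of 0.1, -0.0109 with 0.5 and -0.12 after rescaling. In EWFxr1 against S Mir684-1 was 0.0438 after scaling to the protein-coding median and 0.0277 after rescaling, and Mir1291 was 0.17 with a pseudocount of 0.1. No cause was tested.

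Signs also turned with 1 library left out, in log2 fold changes of genes that passed in no comparison or not in the one given. In EW against S the range was -0.29 to 0.13 for Mir22, -0.39 to 0.49 for Mir1949 and -0.83 to 0.0227 for Mir1291. In EWFxr1 against EW it was -1.95 to 1.38 for Mir3069, -0.33 to 0.55 for Mir1949 and -0.10 to 0.36 for Mir1291. In EWFxr1 against S it was -0.0182 to 0.43 for Mir703, -0.23 to 0.19 for Mir684-1, -0.29 to 0.0293 for Mir684-2, -0.79 to 0.0815 for Mir1843b, -0.0368 to 0.29 for Mir1949 and -0.65 to 0.20 for Mir1291. Depth limits the low members most: Mir1291 rested on a median of 3.27 whole fragments per library, Mir1843b on 3.17 and Mir5046 on 3.67.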

Other observations

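The naming rule leaves out genes that the annotation types as microRNA but that carry a provisional name. Of 984 such symbols 13 had a mean of at least 1 FPKM. The highest, Gm26377, was at 849, 1137 and 937 FPKM in S, 860, 870 and 771 in EW and 1422, 1007 and 913 in EWFxr1, and shares 107 of the 109 bases of the Mir703 hairpin, as Eef1a1 does. Gm23935 was at 83.3, 18.2 and 55.3 FPKM in S, 161, 190 and 193 in EW and 1.52, 23.2 and 26.2 in EWFxr1, so its EW libraries were above all others; it was chosen after its values were seen and was not tested here.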
